A study of Homo sapiens with 6 samples.

Results

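SGPL1, the lyase that breaks down sphingosine phosphate, and 44 further genes of sphingosine phosphate and ceramide metabolism were examined in MIA-PaCa2, a long-established cell line of human pancreatic ductal adenocarcinoma, after knockdown of the long noncoding RNA H19. The members were the genes of the enzymes that form, modify and break down ceramide and sphingosine phosphate (S1P), the regulators of the first of these steps, the S1P exporter and the S1P receptors, matched by gene symbol. All 45 members had 1 probe set each among the 39261 named probe sets of the Clariom D array, a microarray that reads coding and noncoding RNAs with short probes. The study asked which transcripts change when H19 is lowered. Cells had been transfected by lipofection with siH19-2, 1 of the siRNAs against H19 (3 arrays), or with NC, the nonsense siRNA control (3 arrays). According to the labels 20 µg of either siRNA was used, according to the methods 50 nM, with a harvest 24 h later. Arrays of cells with the siRNA siH19-1 were not analysed here. With 1 siRNA, an effect of lower H19 and another effect of siH19-2 cannot be told apart on these arrays. The array legend speaks of triplicates and the statistics section of independent experiments for quantitative data in general, but neither says that these arrays came from separate cultures. Without separate cultures, a p-value reflects only how arrays vary, which may be technical.

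Sphingolipids are built on a long-chain base that serine palmitoyltransferase makes in the endoplasmic reticulum. Ceramide synthases attach a fatty acid to this base, and ceramide is then converted to sphingomyelin or glycosphingolipids, or is cleaved by ceramidases to sphingosine. Sphingosine kinases turn sphingosine into S1P, a signalling lipid that leaves the cell and acts on G protein-coupled receptors, where it is known for effects on survival, migration and vessel growth. S1P is returned to sphingosine by phosphatases or cleaved for good by SGPL1 into a fatty aldehyde and phosphoethanolamine, the only exit from the pathway.

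H19, the targeted RNA (gene ID 283120), had log2 signals of 7.10, 7.09 and 7.12 on the siH19-2 arrays, against 7.36, 7.43 and 7.42 on the NC arrays. The groups did not overlap. The H19 log2 fold change, siH19-2 minus NC, was -0.30 ± 0.036 (SE, adjusted p = 0.012 from limma), which leaves 81.3% (95% interval 76.4% to 86.5%) of the NC signal. H19 was no longer called, with an adjusted p from limma above 0.05, when siH19-2 replicate 1 (0.0595), siH19-2 replicate 2 (0.0534), NC replicate 2 (0.0668) or NC replicate 3 (0.0633) was left out. Correlations between arrays were 0.993 to 0.995 within a group and 0.991 to 0.993 between groups, and siH19-2 replicate 3 stood apart from the other siH19-2 arrays on principal component 2, at -21.1 against 16.6 and 11.1. Among 7 markers of an epithelial pancreatic cancer line, 1 was lower, namely KRT19 (-0.40, adjusted p = 0.032 from limma), and the mean log2 signal of the 7 was 8.22 to 8.32 on the siH19-2 arrays and 8.34 to 8.37 on the NC arrays. The epithelial adhesion gene EPCAM had a log2 signal of 4.48 to 4.57 on the siH19-2 arrays and 4.51 to 4.54 on the NC arrays, below the median of 6.16 over all probe sets, and CDH1 also lay below it, whereas the keratin gene KRT8 and the mesenchymal filament gene VIM lay above it in both groups. No marker of leukocytes (5 genes, mean 5.77 to 5.79 with siH19-2 and 5.70 to 5.74 with NC), endothelial cells (4 genes) or the acinar and islet pancreas (7 genes) passed the test, and 1 of 5 fibroblast markers, COL1A2, was lower (-0.19, adjusted p = 0.032 from limma). The part of these markers in the results on sphingolipid genes was not tested.

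Of the 45 sphingolipid genes, 4 were lower with siH19-2 at an adjusted p under 0.05 and none was higher. The lower genes were SGPL1, the S1P phosphatase SGPP1, the serine palmitoyltransferase inhibitor ORMDL1 and the alkaline ceramidase ACER3. These are 8.89% of the members, beside 5.26% of all named probe sets called in either direction, 2.63% called lower and 2.64% called higher. SGPL1 is among the candidates that the study picked as shared by siH19-1 and siH19-2, in part on these arrays. Its own change is therefore no independent evidence. Without SGPL1, 3 of 44 genes were called (6.82%). The median log2 fold change of the 45 genes was -0.0034, and that of all named probe sets was 0.0157. The 45 estimates were divided into 23 below 0 and 22 above it. The remaining 41 genes ranged from -0.17 to 0.19 on the log2 scale, and none of their 95% intervals reached further than 0.29 from 0. Without siH19-2 replicate 3, SGPL1, SGPP1 and ACER3 were called. Without siH19-2 replicate 1 or 2, SGPL1 and SGPP1 were called, and without any 1 of the NC arrays only SGPL1 was. Since RNA was taken from whole cultures, fewer cells with a transcript and less of it per cell cannot be told apart.

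**Figure D1:**
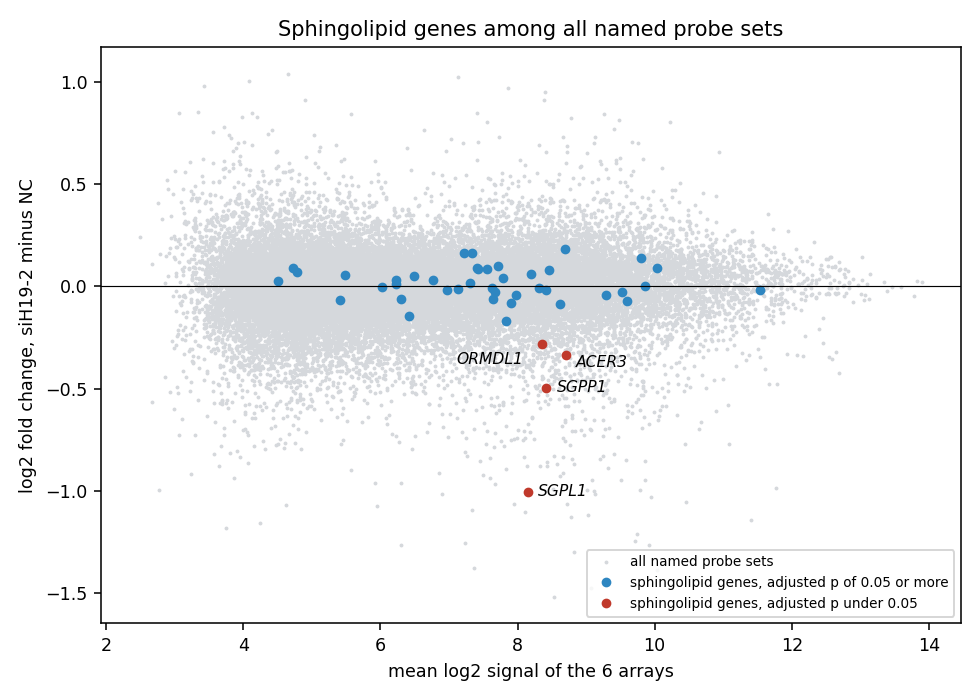
Log2 fold change (siH19-2 minus NC) of each of 39261 named probe sets (grey) against its mean log2 signal over the 6 arrays, with the 45 sphingolipid genes in blue (adjusted p of 0.05 or more) or red (under 0.05). SGPL1 lies at -1.01 and SGPP1 at -0.50, ORMDL1 and ACER3 lie near -0.3, and the other sphingolipid genes lie between -0.17 and 0.19.

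Promoter sequences are shown for SGPL1, ACER3 and ORMDL1, 3 of the 4 called genes, to set side by side the bases in front of genes that were lower together. The windows cover the 250 bases before the outermost annotated start, from RefSeq on GRCh38.p14. Capitals mark matches on either strand to the GC box GGGCGG or the CCAAT box (letters CCAAT), and no match of these motifs overlapped another. SGPL1 lies on the plus strand at chr10:70815698-70815947, ACER3 on the plus strand at chr11:76860668-76860917 and ORMDL1 on the minus strand at chr2:189784340-189784589.
SGPL1: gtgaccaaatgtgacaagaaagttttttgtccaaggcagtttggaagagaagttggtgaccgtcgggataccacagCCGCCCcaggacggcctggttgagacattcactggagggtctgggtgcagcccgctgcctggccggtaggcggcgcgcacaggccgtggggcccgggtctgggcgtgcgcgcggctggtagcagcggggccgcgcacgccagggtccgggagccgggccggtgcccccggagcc
ACER3: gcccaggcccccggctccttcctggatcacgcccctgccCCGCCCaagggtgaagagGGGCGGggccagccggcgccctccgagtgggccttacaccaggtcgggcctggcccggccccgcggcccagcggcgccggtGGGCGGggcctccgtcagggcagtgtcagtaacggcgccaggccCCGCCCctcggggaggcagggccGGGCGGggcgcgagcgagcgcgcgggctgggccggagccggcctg
ORMDL1: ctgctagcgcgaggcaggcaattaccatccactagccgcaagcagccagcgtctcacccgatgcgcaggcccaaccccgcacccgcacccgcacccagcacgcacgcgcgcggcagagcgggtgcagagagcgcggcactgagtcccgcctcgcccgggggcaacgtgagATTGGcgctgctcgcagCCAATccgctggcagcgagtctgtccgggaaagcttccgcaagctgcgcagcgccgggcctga
The SGPL1 window had 1 GC box, 174 bases before the start, and 68.8% of its bases were G or C. The ACER3 window had 5 GC boxes, the nearest 45 bases before the start, and 81.2% G or C. The ORMDL1 window had no GC box and 2 CCAAT boxes, and 70.4% of it was G or C. The GC box occurred in 42.2% of 27305 promoters and in 25 of 37 member promoters (67.6%). The CCAAT box occurred in 33% of all promoters and in 9 of the 37 (24.3%). The 27305 promoters were not filtered by gene type, whereas all members are protein-coding genes, so these shares may compare unlike genes. None of the 3 printed windows held the E-box CACGTG (6.46% of all promoters, 1 of the 37), the TATA box TATAAA (11.2% of all, none of the 37) or the cyclic AMP response element TGACGTCA (1.75% of all, 1 of the 37). These matches describe the letters of the windows and do not show binding of a factor. None of the 5 motifs searched occurred in all 3 printed windows, as the GC box was in front of SGPL1 and ACER3 and the CCAAT box in front of ORMDL1.

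SGPL1 (gene ID 8879) had log2 signals of 7.68, 7.63 and 7.62 on the siH19-2 arrays, against 8.71, 8.64 and 8.61 on the NC arrays. All siH19-2 arrays lay far below all NC arrays, and the gap between the groups was many times the spread within either. The mean was 7.64 ± 0.035 with siH19-2 and 8.65 ± 0.052 with NC (SD, n = 3 each). SGPL1 fell by 1.01 on the log2 scale (SE 0.043, 95% interval -1.11 to -0.90, adjusted p = 0.00078 from limma), and 49.8% of the NC signal was left (95% interval 46.3% to 53.6%). The exact permutation test, two-sided, gave p = 0.1, the smallest that 3 arrays against 3 allow. By size the fall was number 26 among the 39261 named probe sets. With each array left out in turn the log2 fold change of SGPL1 stayed between -1.03 and -0.976, and the adjusted p from limma between 0.00786 and 0.0112.

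The cut-offs used in the study (p under 0.05 without adjustment, and a log2 fold change of more than 1 in either direction) were passed by 30 of all named probe sets (0.0764%) and by 1 of the 45 members, SGPL1. SGPL1 lay on that limit. Leaving out siH19-2 replicate 2 gave a log2 fold change of -0.999, leaving out siH19-2 replicate 3 gave -0.991 and leaving out NC replicate 1 gave -0.976, and no member then passed.

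The next largest fall was that of SGPP1 (gene ID 81537), which encodes a phosphatase of the endoplasmic reticulum that returns S1P to sphingosine. SGPP1 had log2 signals of 8.23, 8.07 and 8.22 on the siH19-2 arrays, against 8.65, 8.64 and 8.72 on the NC arrays. The groups did not overlap, and siH19-2 replicate 2 was the lowest array. SGPP1 fell by 0.50 on the log2 scale (SE 0.058, 95% interval -0.64 to -0.35, adjusted p = 0.011 from limma), leaving 70.9% of the NC signal (64.2% to 78.2%). The fall of SGPP1 was between -0.53 and -0.44 with each array left out. Its adjusted p from limma was 0.0565, 0.0519 and 0.0553 on leaving out NC replicate 1, 2 or 3, in that order.

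The paralogue SGPP2, a phosphatase with the same reaction, had log2 signals of 6.48, 6.54 and 6.54 on the siH19-2 arrays, against 6.55, 6.45 and 6.41 on the NC arrays. Its arrays overlapped between the groups. The log2 fold change of SGPP2 was 0.05 (95% interval -0.07 to 0.17, adjusted p = 0.61 from limma).

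Neither of the kinases that make S1P was called. SPHK1, the largely cytosolic sphingosine kinase, had log2 signals of 7.49, 7.48 and 7.43 on the siH19-2 arrays and 7.38, 7.37 and 7.40 on the NC arrays. The SPHK1 arrays did not overlap, with siH19-2 higher, but the log2 fold change of 0.09 (95% interval 0.00 to 0.17) did not pass the test after adjustment (adjusted p = 0.245 from limma). SPHK2, the kinase found also in the nucleus and mitochondria, had log2 signals of 7.71, 7.66 and 7.62 on the siH19-2 arrays and 7.66, 7.65 and 7.76 on the NC arrays, which overlapped. Its log2 fold change was -0.03 (95% interval -0.14 to 0.09, adjusted p = 0.804 from limma).

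ALDH3A2, the dehydrogenase that oxidises the fatty aldehyde released by SGPL1, had log2 signals of 9.26, 9.27 and 9.27 on the siH19-2 arrays and 9.29, 9.31 and 9.31 on the NC arrays. The arrays were separated, with siH19-2 lower, but only by hundredths of a log2 unit. The log2 fold change was -0.04 (95% interval -0.12 to 0.03, adjusted p = 0.522 from limma). SPNS2, which carries S1P out of the cell, had a log2 fold change of -0.02 (95% interval -0.12 to 0.09, adjusted p = 0.856 from limma).

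**Figure D2:**
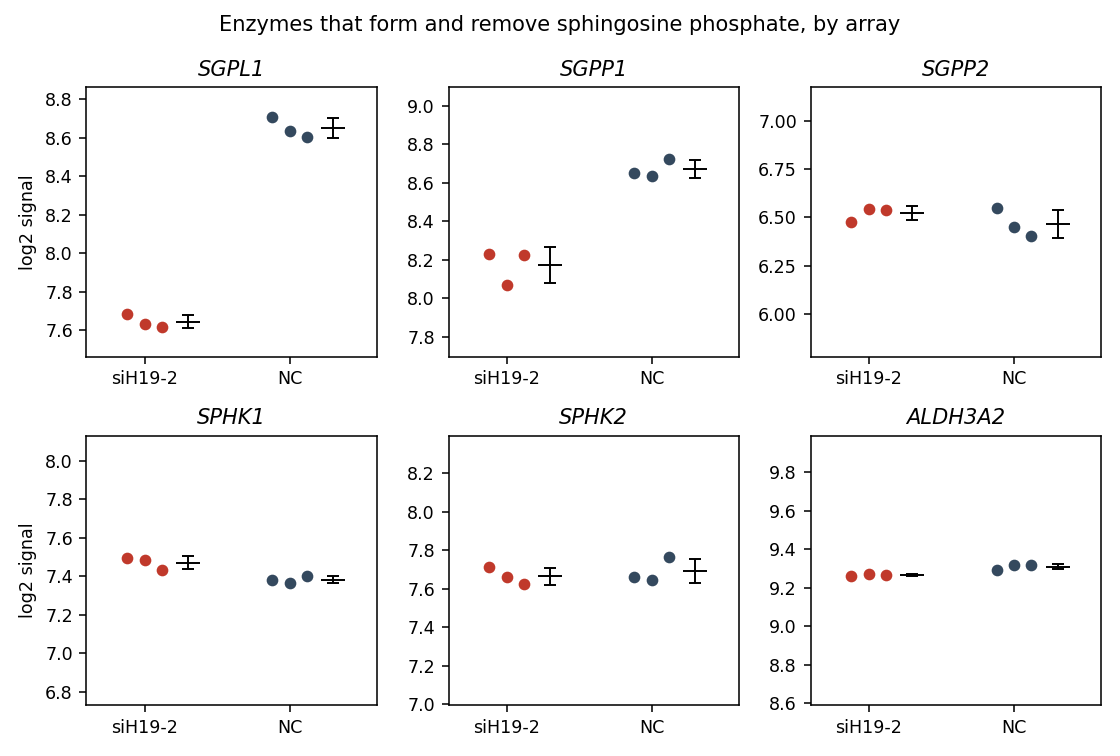
Log2 signal on each of 3 siH19-2 arrays (red, left) and 3 NC arrays (dark blue, right) for 6 enzymes that form or remove S1P or its products, with the mean and SD as a bar beside the points. SGPL1 and SGPP1 are well separated between the groups, and SGPP2, SPHK1, SPHK2 and ALDH3A2 have means within 0.09 of each other.

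Pairs of genes within the pathway were compared through the difference of their changes, in 11 pairs that were chosen after the values had been seen. The fall of SGPL1 exceeded that of SGPP1 by 0.51 on the log2 scale (-0.51, 95% interval -0.71 to -0.31). SGPL1 differed from SPHK1 by -1.09 (95% interval -1.20 to -0.99), from SPHK2 by -0.98 and from ALDH3A2 by -0.96. SGPP1 differed from its paralogue SGPP2 by -0.55 (95% interval -0.81 to -0.29), from SPHK1 by -0.58 and from SPHK2 by -0.47. In all 11 pairs the exact permutation p, two-sided, was 0.1, and it was 0.1 after Benjamini-Hochberg adjustment, so that no pair could pass at this number of arrays.

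The receptors for S1P, which couple the lipid to G proteins at the cell surface, showed no call among 5 genes. Over all named probe sets 5.26% were called. The median log2 fold change of the receptors was 0.03. S1PR5 had log2 signals of 7.62, 7.59 and 7.60 on the siH19-2 arrays and 7.52, 7.53 and 7.50 on the NC arrays. Its groups did not overlap, with siH19-2 higher. The log2 fold change of S1PR5 was 0.08 (95% interval 0.01 to 0.16, adjusted p = 0.218 from limma). The arrays of S1PR1, S1PR2, S1PR3 and S1PR4 overlapped between the groups, and their log2 fold changes were -0.06, 0.09, 0.03 and 0.02.

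At the entry of the pathway, 1 of 9 genes was called, beside 5.26% of all named probe sets. ORMDL1 (gene ID 94101) encodes a membrane protein of the endoplasmic reticulum that holds serine palmitoyltransferase in check when ceramide is plentiful. ORMDL1 had log2 signals of 8.24, 8.23 and 8.16 on the siH19-2 arrays, against 8.53, 8.42 and 8.53 on the NC arrays. The groups did not overlap. ORMDL1 fell by 0.28 on the log2 scale (SE 0.048, 95% interval -0.40 to -0.16, adjusted p = 0.033 from limma), leaving 82.3% of the NC signal. With 1 array left out, whichever it was, the adjusted p of ORMDL1 from limma was above 0.05, from 0.0626 to 0.129, while the log2 fold change stayed between -0.32 and -0.25.

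The paralogues of ORMDL1, which act on the same enzyme, were not called. ORMDL3 had log2 signals of 7.77, 7.76 and 7.78 on the siH19-2 arrays and 7.63, 7.68 and 7.70 on the NC arrays. Here the siH19-2 arrays were the higher ones, without overlap, at a log2 fold change of 0.10 (95% interval 0.01 to 0.19, adjusted p = 0.192 from limma). ORMDL2 had log2 signals of 7.96, 7.82 and 7.78 on the siH19-2 arrays and 7.97, 7.96 and 7.88 on the NC arrays, which overlapped, at a log2 fold change of -0.08 (95% interval -0.23 to 0.07). The change of ORMDL1 differed from that of ORMDL3 by -0.38 (95% interval -0.54 to -0.22) and from that of ORMDL2 by -0.20 (95% interval -0.39 to -0.01).

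Among the subunits of serine palmitoyltransferase itself, SPTLC2, a catalytic subunit, had log2 signals of 7.76, 7.67 and 7.82 on the siH19-2 arrays and 7.92, 7.92 and 7.92 on the NC arrays. The siH19-2 arrays were all lower and more scattered. The log2 fold change of SPTLC2 was -0.17 (95% interval -0.28 to -0.06, adjusted p = 0.108 from limma). SPTLC2 was called lower when only probe sets brighter than the median were tested (adjusted p = 0.031 from limma). That setting called 4058 probe sets in all, against 2067 in the main fit. SPTLC1, its partner subunit, had log2 signals of 10.08, 10.03 and 10.14 on the siH19-2 arrays and 9.99, 9.99 and 10.00 on the NC arrays. There the siH19-2 arrays were higher without overlap, at a log2 fold change of 0.09 (95% interval -0.01 to 0.19, adjusted p = 0.271 from limma). SPTLC3, the alternative catalytic subunit, had a log2 fold change of 0.03, and the small activating subunits SPTSSA and SPTSSB had -0.07 each. KDSR, the reductase of the following step, had a log2 fold change of 0.08.

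In the middle of the pathway none of 8 ceramide synthases and desaturases was called, beside 5.26% of all named probe sets. Their median log2 fold change was -0.01. CERS2, the synthase for very-long-chain ceramides, had log2 signals of 11.52, 11.53 and 11.51 on the siH19-2 arrays and 11.54, 11.54 and 11.53 on the NC arrays. That is an overlap within hundredths of a log2 unit, and the 95% interval of its change ran from -0.09 to 0.06. CERS4 had the largest estimate of this group. Its log2 signals were 7.43, 7.49 and 7.34 on the siH19-2 arrays and 7.29, 7.28 and 7.20 on the NC arrays, without overlap and with siH19-2 higher. The log2 fold change of CERS4 was 0.16 (95% interval 0.04 to 0.29, adjusted p = 0.157 from limma). DEGS1, the desaturase that completes ceramide, had a log2 fold change of 0.002 (95% interval -0.09 to 0.09), and CERS5 and CERS6 had -0.01 and -0.03.

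The ceramidases, which free sphingosine from ceramide, held 1 call in 5 genes, beside 5.26% called over all named probe sets. ACER3 (gene ID 55331), an alkaline ceramidase of the endoplasmic reticulum and Golgi apparatus, had log2 signals of 8.51, 8.48 and 8.63 on the siH19-2 arrays, against 8.93, 8.82 and 8.86 on the NC arrays. Its groups did not overlap, and siH19-2 replicate 3 was nearest to the NC arrays. ACER3 fell by 0.33 on the log2 scale (SE 0.055, 95% interval -0.47 to -0.20, adjusted p = 0.030 from limma), leaving 79.3% of the NC signal. Of the 6 fits with an array left out, only that without siH19-2 replicate 3 kept ACER3 under 0.05 (adjusted p = 0.035 from limma, log2 fold change -0.38), and in the others the adjusted p reached up to 0.113.

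The other alkaline ceramidases overlapped between the groups. ACER1 had log2 signals of 6.20, 6.33 and 6.17 on the siH19-2 arrays and 6.25, 6.25 and 6.17 on the NC arrays. ACER2 had log2 signals of 5.87, 6.04 and 6.13 on the siH19-2 arrays and 6.14, 5.99 and 5.92 on the NC arrays. The change of ACER3 differed from that of ACER1 by -0.34 (95% interval -0.61 to -0.08) and from that of ACER2 by -0.33 (95% interval -0.54 to -0.12). ASAH1, the acid ceramidase of the lysosome, had log2 signals of 7.57, 7.56 and 7.70 on the siH19-2 arrays and 7.72, 7.67 and 7.62 on the NC arrays, with overlap, at a log2 fold change of -0.06 (95% interval -0.19 to 0.07). ASAH2, the neutral ceramidase, had a log2 fold change of 0.09 (95% interval 0.01 to 0.18, adjusted p = 0.217 from limma).

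**Figure D3:**
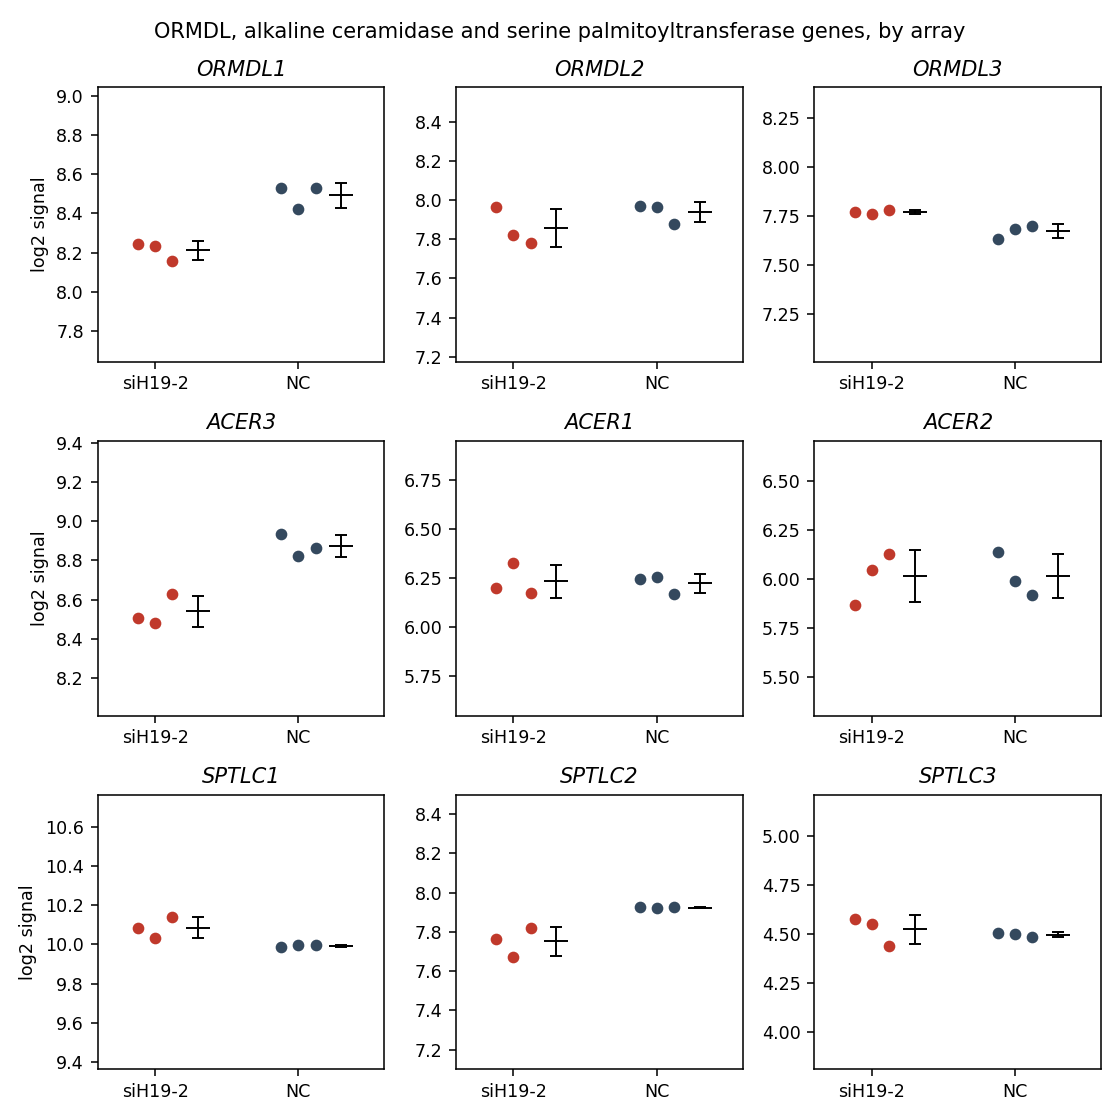
Log2 signal on each of 3 siH19-2 arrays (red, left) and 3 NC arrays (dark blue, right) for the ORMDL, alkaline ceramidase and serine palmitoyltransferase genes, with the mean and SD as a bar beside the points. ORMDL1 and ACER3 are lower with siH19-2, whereas their paralogues overlap between the groups or, for ORMDL3, are higher by 0.10.

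None of the 11 genes that convert ceramide to complex sphingolipids or release it from them was called, beside 5.26% of all named probe sets. Their lowest adjusted p-values came close to the threshold. SGMS2, the sphingomyelin synthase of the plasma membrane, had log2 signals of 7.32, 7.27 and 7.31 on the siH19-2 arrays and 7.16, 7.15 and 7.10 on the NC arrays. The siH19-2 arrays were higher without overlap, at a log2 fold change of 0.16 (95% interval 0.08 to 0.25, adjusted p = 0.061 from limma). SMPD1, the acid sphingomyelinase that works in the opposite direction in lysosomes, had log2 signals of 8.74, 8.84 and 8.77 on the siH19-2 arrays and 8.60, 8.63 and 8.57 on the NC arrays. These did not overlap either, with siH19-2 higher, at a log2 fold change of 0.19 (95% interval 0.08 to 0.29, adjusted p = 0.068 from limma). Both genes were called with a robust prior fitted with a trend, or when only probe sets brighter than the median were tested. Calls over all tested probe sets also rose in these settings, from 2067 to 3449 and 4058.

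GALC, the lysosomal galactosylceramidase, had log2 signals of 6.38, 6.37 and 6.28 on the siH19-2 arrays and 6.49, 6.48 and 6.49 on the NC arrays. The siH19-2 arrays were lower without overlap, at a log2 fold change of -0.14 (95% interval -0.24 to -0.04, adjusted p = 0.124 from limma). GALC was called lower when only probe sets brighter than the median were tested (adjusted p = 0.0367 from limma), a setting with 4058 calls in all. SMPD4, a neutral sphingomyelinase, had a log2 fold change of 0.14 (95% interval 0.02 to 0.25, adjusted p = 0.174 from limma). SGMS1, the Golgi sphingomyelin synthase, had a log2 fold change of -0.007. UGCG, which makes glucosylceramide, had -0.09, UGT8, which makes galactosylceramide, had 0.07, and the ceramide kinase CERK had 0.06. GBA2, the glucosylceramidase outside the lysosome, had a log2 fold change of 0.04.

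Across the 45 genes, the arrays of the groups did not overlap for 8 that were lower with siH19-2 (17.8%) and for 12 that were higher (26.7%). Among all named probe sets 9.98% were separated in this way with siH19-2 lower and 18.3% with siH19-2 higher. Beside the called genes, the lower ones were ALDH3A2, SPTLC2, SPTSSA and GALC. The 12 higher ones were SPHK1, S1PR5, SPTLC1, KDSR, ORMDL3, CERS3, CERS4, SGMS2, CERK, SMPD1, SMPD4 and ASAH2. At an unadjusted p under 0.05, 14 of the 45 genes (31.1%) passed the test from limma, beside 20.3% of all named probe sets. Of the 45 members 39 were brighter than the median, so none of these shares has a matched background. When only probe sets brighter than the median were tested, 8 of 39 members were called. Calls over all tested probe sets also rose there, to 4058 from 2067, although fewer probe sets were tested. Whether the members exceed such a background was not tested.

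**Figure D4:**
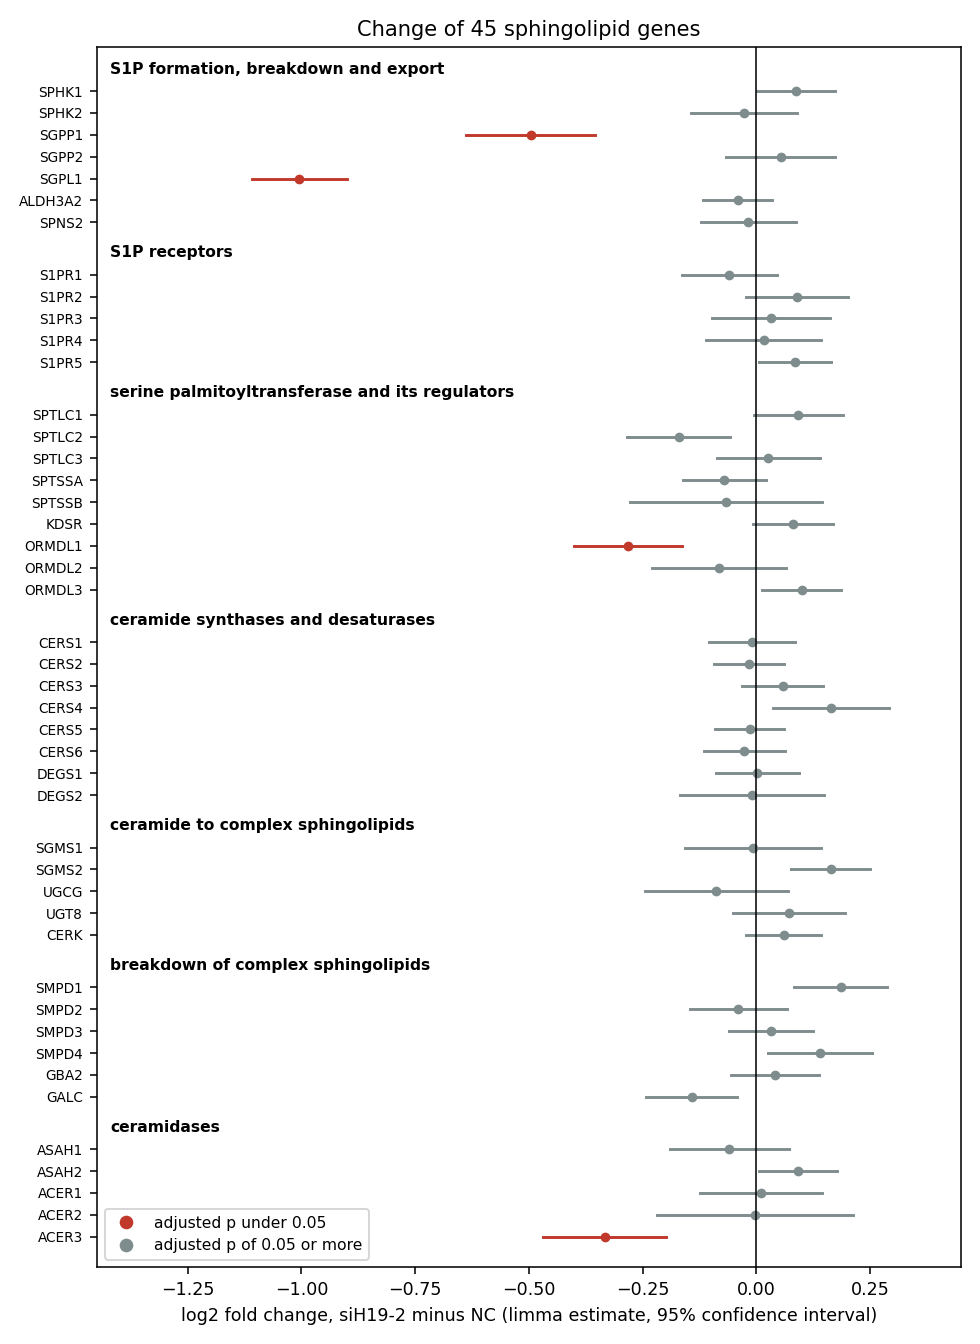
Log2 fold change (siH19-2 minus NC, horizontal axis) of the 45 sphingolipid genes with 95% confidence intervals, grouped by role, in red for an adjusted p under 0.05 and in grey otherwise. SGPL1, SGPP1, ORMDL1 and ACER3 are the red genes, at -1.01, -0.50, -0.28 and -0.33, and the other 41 lie between -0.17 and 0.19.

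Some members have near-identical or overlapping copies, whose signals the probes could share. The 8 rows for such copies, among them ASAH2B, GBAP1 and the pseudogenes of SPTLC1 and SMPD4, held no call, and their lowest adjusted p from limma was 0.223. The values of ASAH2, SPTLC1, SMPD4 and CERS1, which overlaps GDF1, are uncertain for this reason.

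Genes around the pathway were read from lists by function. Over all named probe sets 5.26% were called, 2.63% lower and 2.64% higher, and no list was matched to them for signal. Enzymes around the products of SGPL1, not all of which use them, held 3 lower and no higher genes among 22 (13.6% called). Their median log2 fold change was 0.04. ETNK1, an ethanolamine kinase whose product is the phosphoethanolamine that SGPL1 also releases, had log2 signals of 8.39, 8.30 and 8.36 on the siH19-2 arrays and 8.66, 8.67 and 8.64 on the NC arrays. The groups did not overlap, and ETNK1 fell by 0.31 on the log2 scale (adjusted p = 0.014 from limma). ACSL3, a synthetase that activates fatty acids with coenzyme A, fell by 0.29 (adjusted p = 0.016 from limma), and HACD1, a dehydratase of fatty acid elongation, fell by 0.25 (adjusted p = 0.037 from limma). Of 14 glycosphingolipid enzymes 1 was lower and none was higher. It was B4GALT5, a lactosylceramide synthase, with log2 signals of 8.90, 8.88 and 8.87 on the siH19-2 arrays and 9.36, 9.46 and 9.33 on the NC arrays. The arrays were clearly separated, and B4GALT5 fell by 0.50 (adjusted p = 0.0048 from limma), leaving 70.7% of the NC signal. Of 18 genes of lysosomal sphingolipid degradation, none was lower and 1 was higher, the hexosaminidase subunit HEXA (0.17, adjusted p = 0.042 from limma).

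Among 24 genes listed as carriers and other modifiers of sphingolipids, not all of which handle sphingolipids, 2 were lower and 3 were higher (20.8% called). MFSD2A, a transporter of lysophospholipids, had log2 signals of 7.56, 7.55 and 7.54 on the siH19-2 arrays and 7.96, 7.96 and 7.95 on the NC arrays. It was lower on every siH19-2 array, and it fell by 0.41 (adjusted p = 0.0032 from limma). MFSD2B of the same list was not called (0.07, adjusted p = 0.336 from limma). The lipid phosphate phosphatases, which can remove the phosphate from S1P outside the cell, went apart. PLPP3 fell by 0.35 (adjusted p = 0.020 from limma), whereas PLPP2 rose by 0.22 (adjusted p = 0.022 from limma). PLPP1 was also higher with siH19-2, by 0.21 and without overlap, but was not called (adjusted p = 0.055 from limma). The sterol-binding protein OSBP rose by 0.26 (adjusted p = 0.017 from limma), and NSMAF, an adaptor of neutral sphingomyelinase activation, rose by 0.28 (adjusted p = 0.025 from limma). The ceramide carrier CERT1, listed under its older symbol COL4A3BP, had a log2 fold change of 0.11 (adjusted p = 0.33 from limma).

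Of 23 G proteins and effectors downstream of the S1P receptors, 9 were higher and none was lower (39.1% called). The median log2 fold change was 0.11. Over all named probe sets, dim ones included, 2.64% were called higher, and the list was not matched to them for signal. STAT3, a transcription factor, had log2 signals of 11.12, 11.12 and 11.10 on the siH19-2 arrays and 10.67, 10.68 and 10.65 on the NC arrays. It was higher on every siH19-2 array and rose by 0.44 on the log2 scale (adjusted p = 0.0026 from limma). GNA11, a G protein subunit that signals through phospholipase C, rose by 0.38 (adjusted p = 0.0094 from limma), and the matricellular gene CYR61, now named CCN1, rose by 0.35 (adjusted p = 0.0079 from limma). The small GTPase RAC1 and the kinase AKT1 rose by 0.30 each, at adjusted p-values from limma of 0.016 and 0.015, and the kinase MAPK3 rose by 0.25 (adjusted p = 0.023 from limma). These genes serve many other receptors as well. Of the 19 genes called in these 5 lists, 3 (STAT3, MFSD2A and B4GALT5) had an adjusted p under 0.05 from limma without each of the 6 arrays, and 16 were at 0.05 or more without at least 1 of them, of which 9 were so whichever array was left out.

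**Figure D5:**
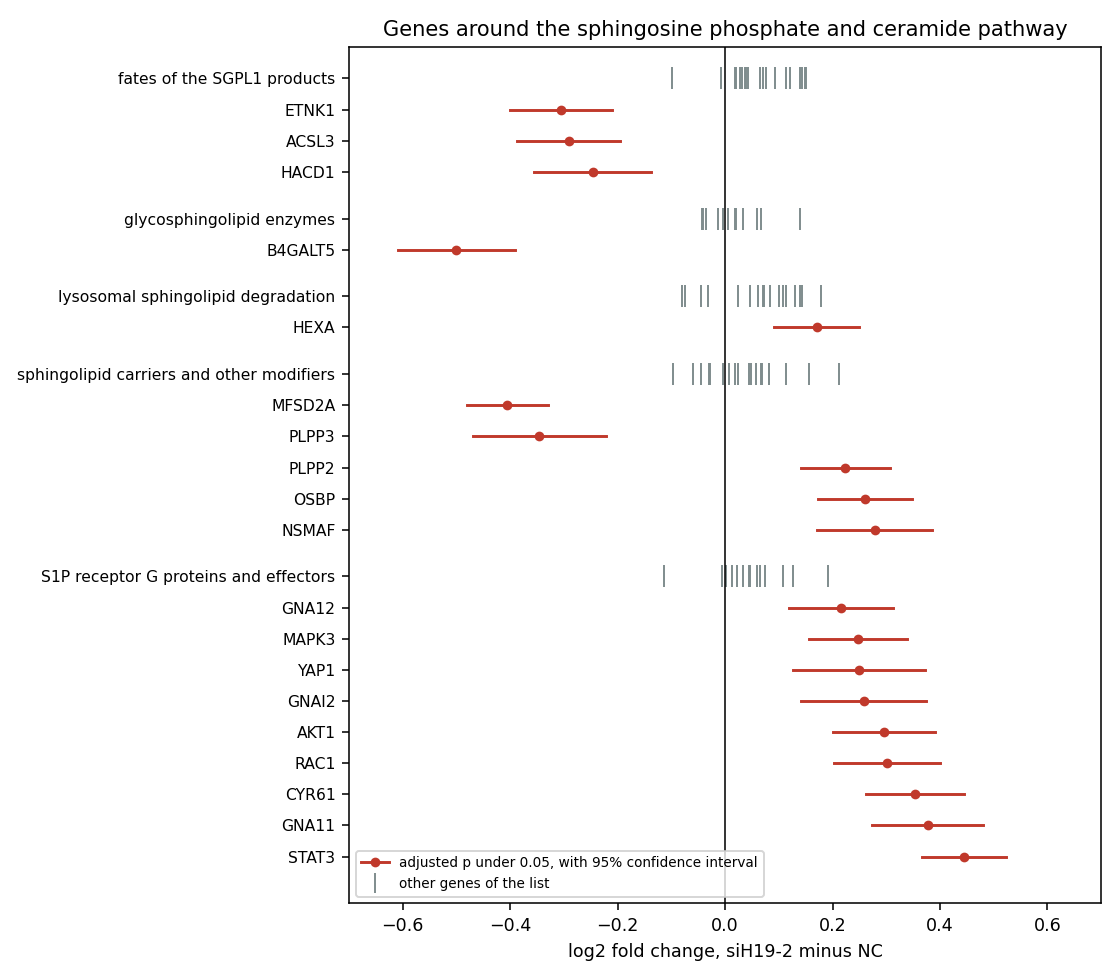
Log2 fold change (siH19-2 minus NC, horizontal axis) of the 19 called genes of 5 lists around the pathway, as red points with 95% confidence intervals, and of the other genes of each list as grey ticks beside the list's name. The called G proteins and effectors all lie above 0, with STAT3 at 0.44, whereas the called genes of the carriers fall on both sides.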

How the data were processed

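The authors hybridised RNA of siH19-2 and NC cells to Clariom D arrays and deposited 1 log2 signal per probe set and array after normalization between arrays. The methods name limma and, for statistics, JMP, and which of them gave the deposited log2 values is uncertain. The background correction is not given in the sources used here. A further table of the authors names the genes and holds group means, fold changes and p-values, of which the gene names were used, and the group means only to check the per-array values (largest difference 5e-09).

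Of 39334 probe sets, 39261 carried a gene name. The difference siH19-2 minus NC was fitted to each of them by lmFit and eBayes of limma 3.58.1 under R 4.3.3 (residual degrees of freedom 4, prior 1.92). Tests were two-sided, p-values were adjusted by Benjamini-Hochberg over all named probe sets, and an adjusted p under 0.05 was a call. Dim probe sets were kept. Precision is limited by the number of arrays. All 45 members were matched to RefSeq by gene ID. Promoters and figures were made in Python 3.11.15 with matplotlib 3.10.9. The fit was tested on simulated data with known changes.

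The members and gene lists were chosen with earlier results of these data known. Values per array were given for SGPL1, the called members and members of the same step or family, and from each other list up to 6 called genes with the smallest p were named. A further marker gene is not reported here. As alternatives, 14 settings were run. They were other scalings, a robust prior with a trend in signal, a filter on dim probe sets and all probe sets. The others were the methods' t-test, the Holm adjustment, a replicate block, and leaving out each array in turn.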

Additional observations from a re-analysis of the deposited data

How the results depend on the processing

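SGPL1 was called lower under all 14 alternatives. The count of called members, 4 of 45, became 6 with a robust prior and trend and 8 among probe sets brighter than the median (39 members tested). It became 1 under the Holm adjustment, 1 with the replicate block, and 1 to 3 with each array left out. The count past the thresholds of the study ranged from 0 to 1 with each array left out. Calls over all named probe sets, 2067, became 3449 with a robust prior and trend and 4058 among probe sets brighter than the median. Fewer probe sets were tested among the brighter ones, so the share called rose there for members and for all tested. Calls became 43 under Holm, 74 with the replicate block and 464 to 1078 with each array left out. H19 stayed at -0.298 under Holm (adjusted p = 1) and with the replicate block (adjusted p = 0.0906 from limma), where it was no longer called, and lay between -0.320 and -0.284 with each array left out. Arrays with the same number correlated at 0.00520 to 0.00993 in their deviations, and 0 of the 6 arrays correlated best with its own number. No pairing by number was seen, but correlations this small cannot tell whether the numbers mark arrays handled together. With the methods' t-test 4 members were called, SGPL1 and SGPP1 lower and S1PR5 and SGMS2 higher.

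Of the 45 members 34 kept their direction, and 11 with an adjusted p of at least 0.693 changed it in at least 1 setting. With each array left out, SPHK2 ranged from -0.0499 to 0.00944, SPNS2 from -0.0475 to 0.0140, S1PR3 from -0.00461 to 0.0767, S1PR4 from -0.0107 to 0.0527, SPTLC3 from -0.00139 to 0.0675, CERS1 from -0.0368 to 0.00819, DEGS1 from -0.0133 to 0.0203, DEGS2 from -0.0503 to 0.0436, SGMS1 from -0.0604 to 0.0420, ACER1 from -0.0378 to 0.0403 and ACER2 from -0.0607 to 0.0692. Cyclic loess gave DEGS1 -0.0157 and ACER1 -0.00336. The causes were not tested, apart from the fewer arrays and probe sets that some alternatives hold. The 3 arrays per group limit what could be called, and dim probe sets had no separate detection value.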
